A study of Mus musculus with 70 samples.

Results

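Interferon-stimulated genes are genes that cells switch on when they sense an interferon, and 43 of them were followed across progenitors of innate lymphoid cells. The 43 genes were listed by name, with earlier results of these data known, and were found in both count tables through their Entrez identifiers. They are 43 of the 27179 genes counted, and 42 of them are among the 10972 genes abundant enough to test. The gene that failed that filter was Isg15, a ubiquitin-like protein that is conjugated to other proteins, with 36 counts in 14 of 47 libraries.

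The data are CEL-seq libraries, which hold short tags from near the 3′ end of polyadenylated transcripts, each made from 100 cells sorted from mouse bone marrow. The wild-type populations were common lymphoid progenitors (CLP, 8 libraries), CLP carrying the integrin α4β7 (5), common innate lymphoid progenitors (CILP, 7), a population labelled ILCP (3), and progenitors of group 2 innate lymphoid cells (ILC2P, 8). TCF7-/- mice, which lack the transcription factor TCF-1, gave 5 CLP, 4 CILP and 2 ILC2P libraries. Id2-/- mice, which lack an inhibitor of E proteins, gave 2 CLP, 2 CILP and 1 ILCP library. The labels give no age, treatment or floxed allele, and no gate for the cells called ILCP. They also do not state that the libraries of a group are from different animals, so each p-value measures only how far these libraries spread, which may be technical. The libraries were made in 2 batches named in the labels. The Id2-/- libraries were all in batch 1 and the TCF7-/- ILC2P libraries all in batch 2, while the other groups were split over both batches.

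Gene counts per library ranged from 19322 to 624668, with a median of 134985. Wild-type CLP, CILP and ILC2P carried the markers listed for them, and several knockout libraries held less of theirs. The 6 CLP markers took 0.927% to 1.805% of counts in wild-type CLP against 0.131% to 0.277% in CILP. The 6 CILP markers took 0.321% to 0.634% in CILP against 0.001% to 0.060% in CLP. They did not set CILP apart from ILCP (0.239% to 0.660%) or ILC2P (0.202% to 0.890%), and Gata3 is in both the CILP and the ILC2P list. The 6 ILC2P markers, among them Gata3 and Il1rl1, took 0.373% to 1.183% in ILC2P against 0.117% to 0.439% in CILP. The CILP markers took 0.070%, 0.142%, 0.412% and 0.075% in the TCF7-/- CILP libraries and 0.061% and 0.052% in Id2-/- CILP. The ILC2P markers took 0.058% and 0.384% in TCF7-/- ILC2P and 0.008% in Id2-/- ILCP, against 0.338% to 0.839% in wild-type ILCP. On the counts-per-million (CPM) scale, Tcf7 stood at 445 ± 253 CPM (SD, n = 7) in wild-type CILP and at 0, 26, 36 and 63 in the TCF7-/- CILP libraries. Id2 stood at 79.6 to 2286 in wild-type CILP and at 27.1 and 116 in Id2-/- CILP. Tcf7 was not lower in the other TCF7-/- populations. It had counts in 1 of 8 wild-type CLP libraries (mean 1.02 CPM) and in 3 of 5 TCF7-/- CLP libraries (mean 11.95 CPM), and it averaged 18.1 CPM in wild-type ILC2P against 0 and 53.4 in the TCF7-/- libraries. The TCF7-/- genotype of CLP and ILC2P therefore rests on the label alone. Id2 was at 0 in both Id2-/- CLP libraries and in 6 of 8 wild-type CLP libraries, and stood at 131 CPM in Id2-/- ILCP, inside the wild-type range of 12.1 to 1228. A 3′ tag can lie outside the deleted part of a gene. In 4 knockout libraries, markers of myeloid, erythroid, plasma and mature B cells together took over 1% of counts: TCF7-/- CILP replicate 1 (1.665%) and replicate 4 (1.477%), TCF7-/- ILC2P replicate 1 (21.421%), and the Id2-/- ILCP library (1.742%). Results that rest on these 4 libraries are given with and without them. The highest wild-type shares were 0.960% in α4β7+ CLP replicate 4 (0.947% on myeloid markers), 0.657% in ILC2P replicate 1 and 0.593% in ILCP replicate 1.

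An interferon that binds its receptor activates Janus kinases. These phosphorylate STAT proteins, which enter the nucleus, with the DNA-binding partner IRF9 after type I or type III interferon and as a homodimer after interferon gamma. The first complex binds the interferon-stimulated response element and the second the gamma-activated sequence, and the genes next to these elements encode sensors of foreign nucleic acid, proteins that block viral entry or replication, the machinery that loads peptides onto MHC class I, and factors that pass the signal on. Many of these genes also have a basal level in lymphoid and stem cells without infection.

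The promoters below belong to the 8 genes that passed the test in some comparison and have a RefSeq promoter in the table used. They are shown because the results turn on these genes. Each window runs from 250 bases before to 50 bases after the annotated start of transcription, in RefSeq's GRCm38.p6 annotation (the mm10 assembly), and is written 5′ to 3′ on the gene's strand. Capitals mark matches, on either strand, to GAAANNGAAA, the core of the interferon-stimulated response element, or to TTCNNNGAA, the core of the gamma-activated sequence. A match on the other strand appears as the reverse complement. The windows are Samhd1 at chr2:157135047-157135346 on the minus strand, Gbp2 at chr3:142620413-142620712 and Gbp3 at chr3:142559794-142560093 on the plus strand, Ifi44 at chr3:151749861-151750160 on the minus strand, Trim30a at chr7:104465144-104465443 on the minus strand, Ifitm1 at chr7:140967826-140968125 on the plus strand, Ifitm3 at chr7:141010695-141010994 on the minus strand, and Rsad2 at chr12:26456403-26456702 on the minus strand.
Samhd1: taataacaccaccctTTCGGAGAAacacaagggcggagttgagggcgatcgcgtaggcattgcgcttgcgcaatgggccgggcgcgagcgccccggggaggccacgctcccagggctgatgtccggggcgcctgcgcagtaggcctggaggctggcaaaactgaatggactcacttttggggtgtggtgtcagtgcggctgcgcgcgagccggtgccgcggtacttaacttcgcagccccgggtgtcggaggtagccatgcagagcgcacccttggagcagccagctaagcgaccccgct
Gbp2: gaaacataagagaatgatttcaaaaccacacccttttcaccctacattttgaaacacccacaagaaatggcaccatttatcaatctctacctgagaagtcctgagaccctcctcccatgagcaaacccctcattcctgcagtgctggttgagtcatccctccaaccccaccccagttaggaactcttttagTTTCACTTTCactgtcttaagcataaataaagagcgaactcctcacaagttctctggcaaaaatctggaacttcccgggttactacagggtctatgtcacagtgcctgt
Gbp3: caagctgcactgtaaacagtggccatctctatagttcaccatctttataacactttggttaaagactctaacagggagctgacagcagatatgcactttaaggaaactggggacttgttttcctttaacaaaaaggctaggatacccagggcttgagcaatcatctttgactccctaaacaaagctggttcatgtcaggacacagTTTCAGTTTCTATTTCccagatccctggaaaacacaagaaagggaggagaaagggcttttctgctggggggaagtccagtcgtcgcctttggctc
Ifi44: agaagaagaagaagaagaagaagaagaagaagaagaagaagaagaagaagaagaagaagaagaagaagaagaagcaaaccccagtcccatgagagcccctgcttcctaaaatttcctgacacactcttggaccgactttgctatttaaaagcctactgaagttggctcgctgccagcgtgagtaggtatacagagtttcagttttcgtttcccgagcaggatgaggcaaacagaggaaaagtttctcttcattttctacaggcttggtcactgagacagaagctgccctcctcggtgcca
Trim30a: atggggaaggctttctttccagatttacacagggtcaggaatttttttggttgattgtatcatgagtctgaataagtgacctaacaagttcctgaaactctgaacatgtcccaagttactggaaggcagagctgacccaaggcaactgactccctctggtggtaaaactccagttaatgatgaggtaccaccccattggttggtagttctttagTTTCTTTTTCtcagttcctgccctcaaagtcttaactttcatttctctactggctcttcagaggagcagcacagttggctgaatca
Ifitm1: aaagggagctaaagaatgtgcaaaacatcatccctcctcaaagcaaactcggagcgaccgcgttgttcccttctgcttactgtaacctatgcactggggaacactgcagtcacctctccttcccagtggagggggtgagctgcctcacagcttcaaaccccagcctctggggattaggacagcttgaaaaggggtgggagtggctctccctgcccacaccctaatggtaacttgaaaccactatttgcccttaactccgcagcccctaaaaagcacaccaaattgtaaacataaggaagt
Ifitm3: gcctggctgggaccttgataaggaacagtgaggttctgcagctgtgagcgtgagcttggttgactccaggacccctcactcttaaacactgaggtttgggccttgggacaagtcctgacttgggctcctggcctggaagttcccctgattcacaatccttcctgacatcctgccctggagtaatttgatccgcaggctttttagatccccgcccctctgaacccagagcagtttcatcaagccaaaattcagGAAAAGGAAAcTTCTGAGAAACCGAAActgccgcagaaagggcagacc
Rsad2: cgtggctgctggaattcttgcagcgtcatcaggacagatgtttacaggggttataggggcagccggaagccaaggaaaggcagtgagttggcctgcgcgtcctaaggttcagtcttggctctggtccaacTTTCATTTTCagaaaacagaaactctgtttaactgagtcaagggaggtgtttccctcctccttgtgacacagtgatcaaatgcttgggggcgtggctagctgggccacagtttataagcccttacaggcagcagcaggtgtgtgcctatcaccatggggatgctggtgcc
The response element core began 59 bases before the start in Gbp2, 36 before it in Trim30a and 120 before it in Rsad2. Gbp3 held overlapping cores that began 45 and 39 bases before the start. Ifitm3 held cores that began 2 and 19 bases after the start, with a gamma-activated core between them that began at 13 and overlaps the second. Samhd1 held a gamma-activated core 235 bases before its start and no response element core, and the Ifi44 and Ifitm1 windows held neither. The Ifitm1 window lies downstream of the first annotated base of the gene (chr7:140967429), so sequence before that base was not searched.

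Over all members, 32 had a window in the table and 11 did not, among them Zbp1 (chr2:173206612-173218959) and Ifi27l2a (chr12:103433873-103443680), which also passed the test. The response element core was present for 16 of the 32 genes, against 3.993% of 27025 genes in the table and 3.443% of its 32851 windows. The gamma-activated core was present for 9 of the 32 (28.12%), against 9.554% of genes and 8.298% of windows. There were 3 genes with both and 10 with neither, and 5 of the 8 genes shown above held the response element core. These are matches of letters, not measured binding, and members near each other share sequence: the windows of Psmb9 and Tap1 overlap, on opposite strands.

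As a group, the 43 genes took a small and similar share of the RNA in every population, highest in ILC2P. The share of gene counts was 0.552% ± 0.148 (SD, n = 8) in wild-type CLP, 0.451% ± 0.101 (n = 5) in α4β7+ CLP, 0.458% ± 0.097 (n = 7) in CILP, 0.616% ± 0.086 (n = 3) in ILCP and 0.767% ± 0.197 (n = 8) in ILC2P. The lowest ILC2P library (0.476%) lay inside the CLP range of 0.385% to 0.833%, so these groups overlap. B2m, the invariant chain of MHC class I, carries much of that share and differs between the batches: its mean level in CLP was 1016 CPM in batch 1 and 2649 in batch 2. Without B2m the remaining 42 genes took 0.241% ± 0.015 in CILP, with a range of 0.225% to 0.266%, against 0.364% ± 0.097 in CLP and 0.434% ± 0.123 in ILC2P. The CILP libraries sit below all 8 CLP libraries on this measure, the lowest of which is at 0.275%. No p-value is given for a sum over genes chosen as a list. Wells that held spike-in RNA and no cells still gave 107 member counts of 23418 gene counts, a share of 0.457% (exact 95% interval 0.375% to 0.552%). The 12 wells had totals of 51 to 9439, and 6 of them held member counts. The wells with the most gave 57 and 35. Myeloid markers took 4.895% of counts in the former, and ILC2P markers 1.067% in the latter. The interval pools the counts of all wells and leaves out differences between wells. The pooled share is close to the share in the cell libraries, whose totals were larger, and the source of these counts was not tested.

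**Figure D1:**
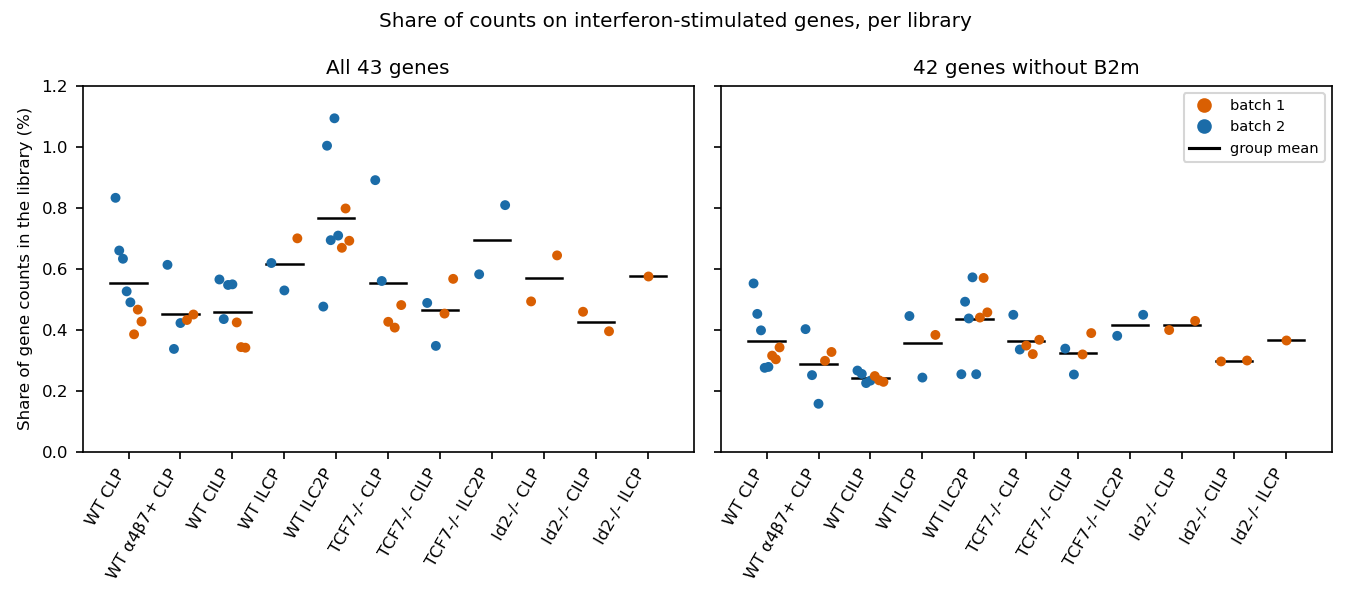
Share of gene counts on the interferon-stimulated genes in each library (%), for all 43 genes on the left and for 42 genes without B2m on the right. Points are libraries, coloured by batch, and black lines are group means; without B2m the 7 wild-type CILP libraries lie between 0.225% and 0.266%, and wild-type ILC2P libraries spread from 0.254% to 0.572%.

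With B2m included, the knockout groups overlapped the wild type. The share was 0.553% ± 0.198 (n = 5) in TCF7-/- CLP, 0.464% ± 0.091 (n = 4) in TCF7-/- CILP, and 0.582% and 0.809% in the TCF7-/- ILC2P libraries. It was 0.493% and 0.644% in Id2-/- CLP, 0.395% and 0.459% in Id2-/- CILP, and 0.578% in Id2-/- ILCP. Without B2m, both Id2-/- CILP libraries (0.296% and 0.299%) and 3 of 4 TCF7-/- CILP libraries (0.338%, 0.319% and 0.389%) lay above every wild-type CILP library, and the remaining TCF7-/- library (0.253%) lay inside the wild-type range. Of these TCF7-/- libraries, those at 0.338% and 0.389% are replicates 1 and 4, which are rich in markers of other cells. The other knockout libraries stayed inside the range of their wild-type population without B2m. The makeup of the share differed more than its size. Antiviral effectors took a mean of 0.083% of counts in wild-type CLP, 0.050% in CILP, 0.162% in ILCP, 0.166% in ILC2P and 0.117% in TCF7-/- CILP. That last mean joins 0.152% in each of the marker-rich replicates 1 and 4 with 0.084% and 0.081% in replicates 2 and 3. Samhd1, one of the 19 antiviral effectors, averaged 1119 CPM in ILCP and 954 in ILC2P, against 114 in CLP and 56.6 in CILP. Trim30a, the next most abundant of them in wild type, went the other way, from 367 in CLP to 84.5 in ILC2P. The higher means in ILCP and ILC2P are therefore not a rise of the class as a whole.

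**Figure D2:**
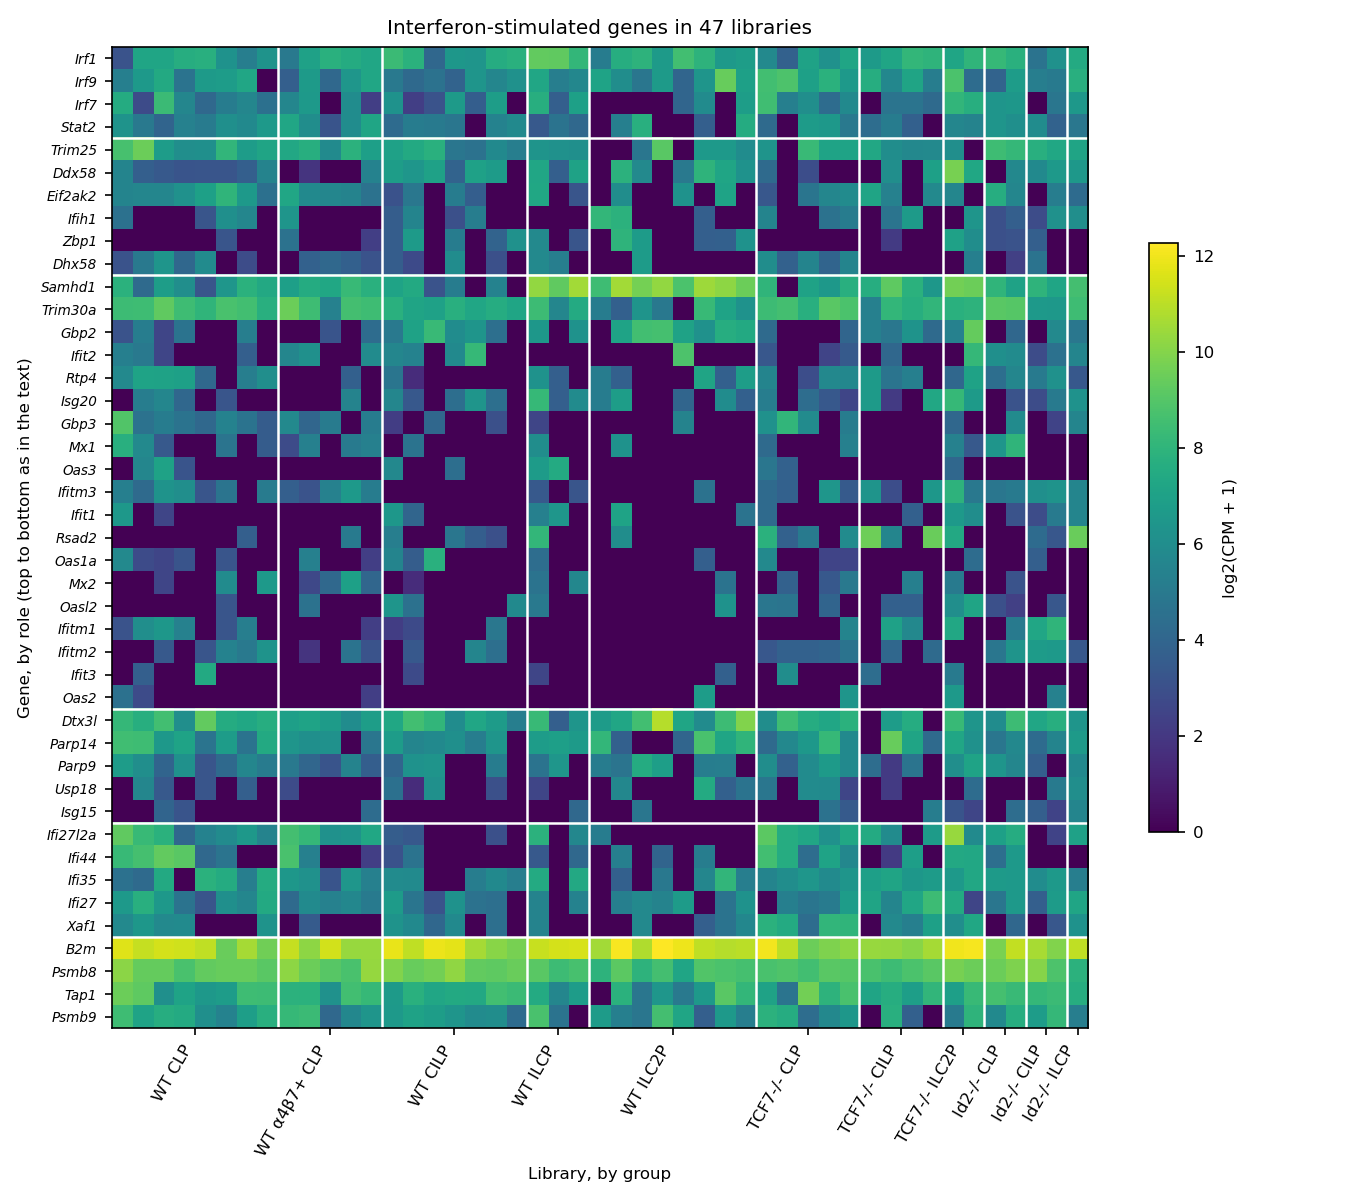
Level of each of the 43 genes, as log2(CPM + 1), in each of 47 libraries. Genes are ordered by role from transcription factors at the top to class I presentation genes at the bottom, and libraries by group; B2m and Psmb8 are high throughout, Samhd1 is high in ILCP and ILC2P, and most antiviral effectors are at 0 in many libraries.

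Levels are in CPM, scaled between libraries by the TMM method. Tags are counted near transcript ends and are not divided by length, so levels are compared between samples and not between genes. Detection was thin: 3 members (B2m, Psmb8 and Irf1) had counts in all 47 libraries, 27 had counts in most libraries, and the gene seen least often, Oas2, had counts in 7. In 15 members the mean over the wild-type libraries was under 20 CPM, and in 10 it was over 100. In samples of pooled cells, fewer cells of a type and less RNA per cell cannot be told apart.

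The 4 class I presentation genes had counts in 44 to 47 of the 47 libraries. B2m ranged from 696 to 3282 CPM in wild-type CLP (median 2247), from 860 to 3808 in CILP (2142) and from 1485 to 4906 in ILC2P (2126). Psmb8, a subunit of the immunoproteasome that cuts peptides for class I, ranged from 433 to 1104 in CLP (median 650), 601 to 1177 in CILP (695) and 148 to 576 in ILC2P (393). The Psmb8 ranges of ILC2P and CILP did not overlap, and its fitted log2 fold change of -1.11 (SE 0.39) missed the threshold (adjusted p = 0.0695, edgeR). Psmb9, the partner subunit, had medians of 158 CPM in CLP, 82.6 in CILP and 68.3 in ILC2P, within overlapping ranges. Tap1, which carries peptides into the endoplasmic reticulum, had medians of 240, 172 and 90.8 CPM in the same order, and its ranges overlapped too. No class I member passed the test in any of the 12 comparisons.

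The transcription factors that pass the interferon signal on were present in every population and none passed the test in any comparison. Irf1, an activator of class I and other genes, had medians of 112 CPM in CLP, 189 in CILP and 156 in ILC2P. In the 3 ILCP libraries Irf1 stood at 632, 618 and 278 CPM, the first 2 of them above the highest CILP library (331), and its log2 fold change over CILP was 1.61 (SE 0.76, adjusted p = 0.433). Irf9, the DNA-binding partner in the type I complex, ranged from 0 to 171 CPM in CLP, 13.8 to 83.1 in CILP and 14.8 to 680 in ILC2P. Stat2 had counts in 26 of 31 wild-type libraries, and Irf7, which induces interferon genes, in 24.

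Among sensors and their regulators, Trim25, a ubiquitin ligase that acts on the RNA sensor RIG-I, was the most widely seen. Trim25 had medians of 127 CPM in CLP, 55.9 in CILP and 44.4 in ILC2P, with overlapping ranges. RIG-I itself (Ddx58) had counts in all 8 CLP libraries at 8.17 to 46.0 CPM and in 6 of 7 CILP libraries with a median of 105. Eif2ak2, the kinase PKR that halts translation on double-stranded RNA, ran from 22.0 to 263 CPM in CLP and from 0 to 34.4 in CILP, and its log2 fold change of -2.79 (SE 1.07) did not pass (adjusted p = 0.125, edgeR), while DESeq2 called it lower (-2.99, adjusted p = 0.0424). Zbp1, a sensor of left-handed nucleic acid linked to cell death, did pass and is described below.

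The ubiquitin-like and ADP-ribosylation genes gave no call in any comparison. Dtx3l, a ubiquitin ligase that pairs with Parp9, had medians of 201 CPM in CLP, 154 in CILP and 242 in ILC2P, where 1 library reached 1899. Parp14, an ADP-ribosyltransferase, had medians of 125, 55.5 and 81.6 CPM in the same order. Parp9 had counts in 25 of 31 wild-type libraries and Usp18, which removes Isg15 and damps the type I receptor, in 14.

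Of 42 genes tested in 12 comparisons, 10 passed at a Benjamini-Hochberg adjusted p under 0.05 somewhere, in 21 calls, and 32 never did. Per comparison, 0% to 3.46% of all genes were called higher and 0% to 8% lower. These shares are given with the edgeR count of members in each comparison below. Most counts from DESeq2 and other settings are given without the share of all genes under that setting, and are not read as results about the members. The tests are edgeR's quasi-likelihood tests in a fit of all 47 libraries with batch as a term, adjusted over all 10972 genes. The comparisons share libraries (wild-type CILP serves in most of them), so their results are not independent of each other and are set side by side only as values.

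**Figure D3:**
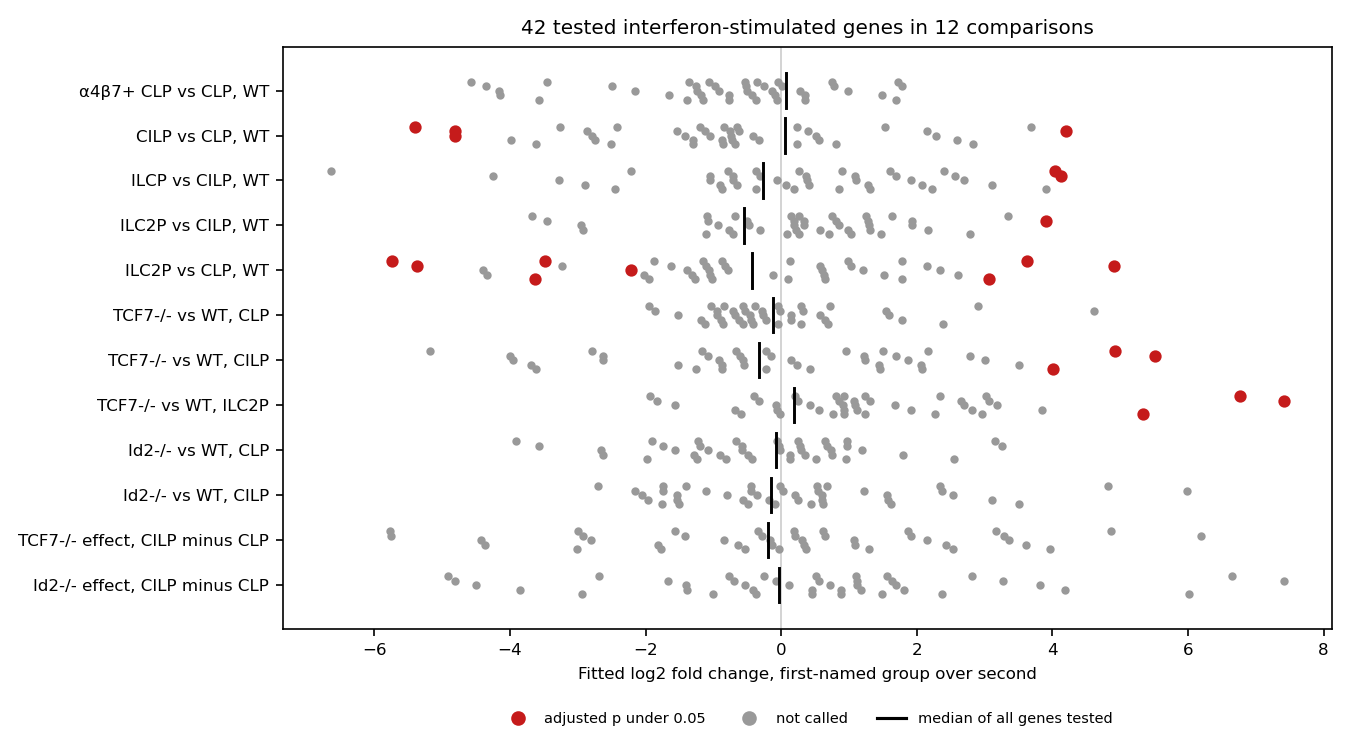
Fitted log2 fold change of the 42 tested genes in each comparison, first-named group over the second; the bottom 2 lines show how the knockout difference in CILP departs from that in CLP. Red points are the 21 calls at an adjusted p under 0.05, grey points did not pass, and a black bar marks the median over all 10972 genes, which lies at -0.55 for ILC2P against CILP.

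CLP that carry α4β7 were compared with CLP to ask what changes as the integrin appears. No member passed (0 of 42), where 0.0273% of all genes were called higher and 0.0182% lower. At an unadjusted p under 0.05 there were 6 members (14.3%, against 7.57% of all genes), and DESeq2 called 0 members. The smallest p belonged to Rtp4, a chaperone-like protein that restrains the interferon response. Rtp4 stood at 0, 0, 0, 12.4 and 0 CPM in the 5 α4β7+ CLP libraries and at 0 to 137 CPM (median 59.9) in the 8 CLP libraries. The groups overlap, and the log2 fold change of -4.58 (SE 1.45) had an adjusted p of 0.29. The median member lay at -0.53 on the log2 scale, against 0.07 for all genes.

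CILP differ from CLP in committing to the innate lymphoid fate. Against CLP, the CILP libraries were lower in 3 members and higher in 1, where 2.34% of all genes were called higher and 1.97% lower. The genes that fell were Ifi27l2a, Ifi44 and Ifitm3, and the gene that rose was Zbp1. The median member lay at -0.79 (all genes 0.06), and 15 of 42 had an unadjusted p under 0.05 (35.7%, against 16.8% of all genes). Ifi27l2a encodes a small hydrophobic protein induced by type I interferon, Ifi44 a GTP-binding-like protein, and Ifitm3 a membrane protein that blocks fusion of viruses with endosomes.

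Ifi27l2a ran from 16.3 to 606 CPM in the 8 CLP libraries (median 75.5) and from 0 to 11.2 in the 7 CILP libraries (median 0). Every CLP library lay above every CILP library, with a log2 fold change of -4.81 (SE 0.94, adjusted p = 0.000253). Ifitm3 had counts in 7 of 8 CLP libraries, at 0 to 78.3 CPM (median 29.3), and in none of the CILP libraries. Set against 3 counts over the whole CILP group, or 2.22 CPM, Ifitm3 was at least 15-fold lower in CILP, and its adjusted p was 0.00527 (edgeR).

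Ifi44 split the CLP libraries by batch. It stood at 307, 406, 631, 564 and 16.7 CPM in the 5 CLP libraries of batch 2 and at 25.5, 0 and 0 in the 3 of batch 1. In CILP it ran from 0 to 24.7 CPM with a median of 0, and the log2 fold change was -4.81 (SE 1.17, adjusted p = 0.00557). The high values are thus those of 4 CLP libraries of batch 2, and the groups overlap. Zbp1 was at 0 in 7 of 8 CLP libraries and at 8.48 CPM in the eighth, and had counts in 5 of 7 CILP libraries, at 0 to 101 CPM (median 13.99). Its log2 fold change was 4.20 (SE 1.31, adjusted p = 0.0446).

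**Figure D4:**
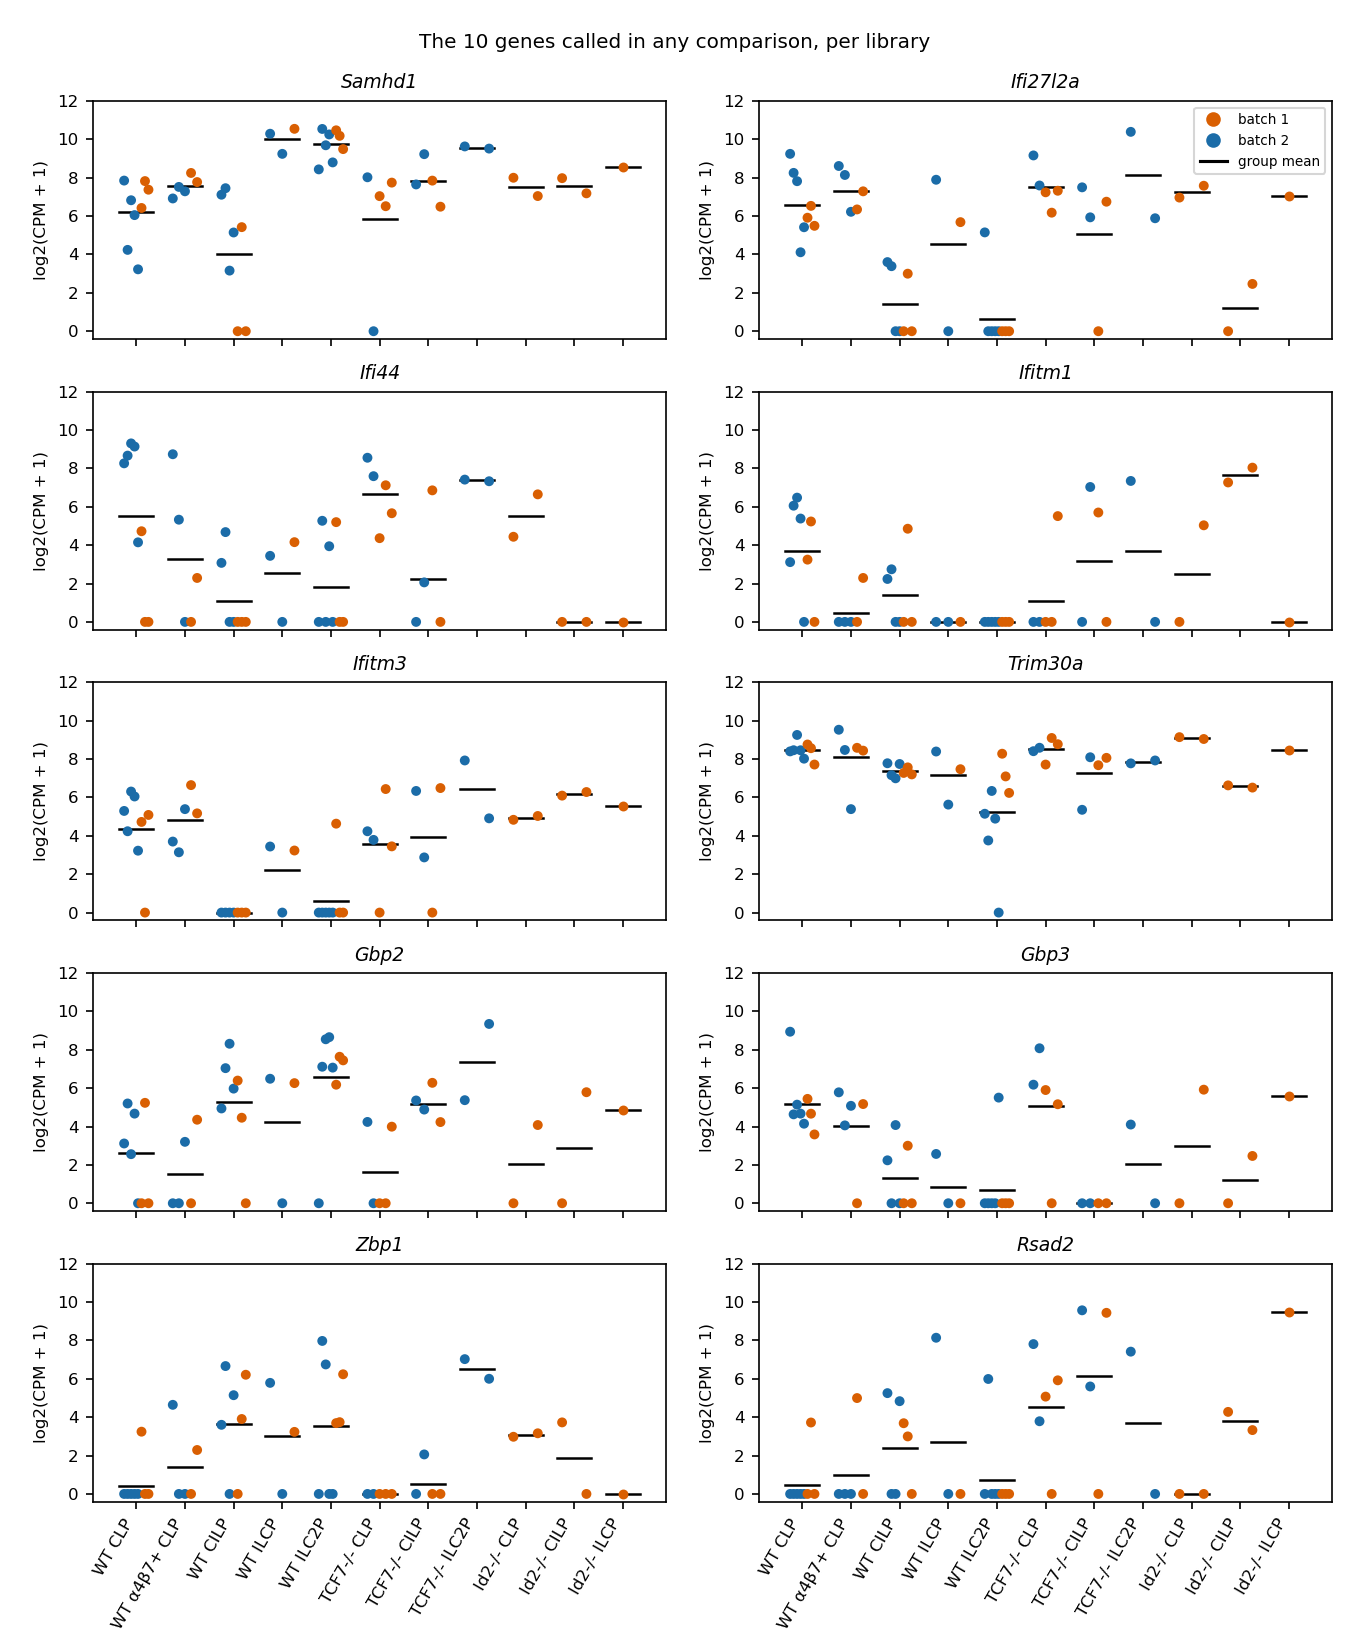
Level of the 10 genes that passed the test in any comparison, as log2(CPM + 1), in each of 47 libraries by group. Points are libraries, coloured by batch, and black lines are means of the plotted values; all 8 ILC2P and all 3 ILCP libraries lie above every CILP library for Samhd1, and all 7 CILP libraries are at 0 for Ifitm3.

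Fitted within batch 1 and then within batch 2, the log2 fold changes of CILP over CLP were -4.01 (adjusted p = 0.21) and -5.12 (0.0179) for Ifi27l2a, -4.47 (0.444) and -5.75 (0.104) for Ifitm3, -3.40 (0.646) and -5.24 (0.0239) for Ifi44, and 2.98 (0.728) and 5.57 (0.129) for Zbp1, all by edgeR. Directions held in both batches. Where a group is at 0 throughout, as Ifitm3 in CILP, a fitted fold change depends on a small added count and is no estimate of size. The Zbp1 call was lost when any of 11 of the 15 libraries was left out (CLP replicates 1 to 5, 7 and 8, and CILP replicates 2, 4, 6 and 7), with an adjusted p of up to 0.121. It was also lost with DESeq2 (0.057) and with the library labelled an outlier put back (0.051), while the other calls held whichever library was left out. DESeq2 called 0 members higher and 6 lower. Markers of plasmacytoid dendritic cells, which make much type I interferon, were also lower in CILP. These 8 markers took 0.120% to 0.761% of counts in CLP and 0.035% to 0.089% in CILP, where Klk1 was at 0, and 0 passed as higher and 5 as lower in CILP. Within CLP, the markers took 0.381% to 0.761% in batch 1 and 0.120% to 0.195% in batch 2. The mean levels in batches 1 and 2 were 8.48 and 385 CPM for Ifi44, 65.0 and 239 for Ifi27l2a, and 19.5 and 41.6 for Ifitm3. Marker content and batch cannot be told apart in CLP, and the part of the markers in these results was not tested.

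The genes around the members moved as follows between CLP and CILP, where 2.34% of all genes were called higher and 1.97% lower. Of 18 tested receptors and signalling genes, 3 rose and 2 fell. Socs1, the feedback inhibitor of Janus kinases, rose from 5.64 ± 12.9 CPM (n = 8) to 254 ± 132 (n = 7), a log2 fold change of 5.55 (SE 1.03, adjusted p = 9.6e-05). Jak2, which serves the interferon gamma receptor, rose with a log2 fold change of 3.30 (SE 0.78, adjusted p = 0.00414). Irf8, a partner of IRF proteins that is also central to dendritic cells, fell from 1330 ± 1820 CPM to 13.2 ± 17.1, a log2 fold change of -4.79 (SE 1.04, adjusted p = 0.00553). The calls not described were Jak1, higher, and Ifnar2, a chain of the type I receptor, lower. Of 36 further interferon-responsive genes, Parp12 and Ddx60 rose and Bst2 fell. Bst2 encodes tetherin, which holds budding virus at the surface and also marks plasmacytoid dendritic cells, and its log2 fold change was -3.40 (SE 0.79, adjusted p = 0.00348). None of 10 tested sensors, adaptors and interferon genes and none of 13 class I partners passed. The median of each of these lists lay between -0.47 and 0.64.

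ILCP and CILP were compared to ask what marks the population labelled ILCP. Samhd1 rose, from a mean of 56.6 ± 70.6 CPM (n = 7) in CILP to 1119 ± 461 (n = 3) in ILCP, and Ifi27l2a rose too. These are 2 of 42 members called higher and 0 lower, where 0.31% of all genes were called higher and 0.0638% lower. Samhd1 encodes a phosphohydrolase that breaks down deoxynucleotides and so starves reverse transcription. It stood at 1254, 606 and 1498 CPM in ILCP and at 0 to 174 (median 34.4) in CILP. The groups do not overlap, and the log2 fold change was 4.13 (SE 0.70, adjusted p = 8.29e-05). Ifi27l2a stood at 237, 0 and 50.5 CPM in ILCP and at 0 to 11.2 in CILP, so that 2 of 3 ILCP libraries lay above the whole CILP group. Its log2 fold change was 4.03 (SE 1.03, adjusted p = 0.0446).

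The Ifi27l2a call in ILCP was lost when any of 9 of the 10 libraries was left out (all 7 CILP libraries and ILCP replicates 1 and 3), with an adjusted p of up to 0.484, and the count of members then fell from 2 to 1. ILCP replicate 1, the library with the highest Ifi27l2a, also held the most erythroid marker counts of the wild-type libraries (0.545%), against 0 to 0.039% in CILP. All 6 tested erythroid markers had counts in CILP and 5 of 6 in ILCP, where Car1 was at 0. Their part in the result was not tested. Within batch 2 the Samhd1 log2 fold change was 3.37 (adjusted p = 0.273, edgeR) and that of Ifi27l2a 4.15 (0.477). Batch 1 held 1 ILCP library, so its log2 fold changes of 6.23 for Samhd1 and 3.59 for Ifi27l2a are given with no test. No gene of the receptor, sensor, further responsive or class I partner lists passed (edgeR), and the list medians lay between 0.40 and 0.73 against -0.27 for all genes.

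ILC2P and CILP were compared to ask what changes towards the group 2 fate. Samhd1 was the 1 member called, higher in ILC2P, where 1.1% of all genes were called higher and 4.22% lower. Samhd1 ran from 345 to 1491 CPM (median 995) in the 8 ILC2P libraries, every one above every CILP library (0 to 174). The log2 fold change was 3.90 (SE 0.63, adjusted p = 5.42e-06, edgeR). It was 5.79 within batch 1 (adjusted p = 7.73e-12) and 3.31 within batch 2 (0.0375). Samhd1 held its call whichever library was left out, and a second member joined it without CILP replicate 1 or without ILC2P replicate 5. DESeq2 called 4 members higher, adding Irf9 (log2 fold change 2.27, adjusted p = 0.029), Rtp4 (3.38, 0.0408) and Dtx3l (1.93, 0.0215). With DESeq2's size factors in edgeR, 160 of all genes were higher and 231 lower, against 121 and 463 with TMM.

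Around the members, 4 of 36 further responsive genes rose in ILC2P over CILP and 1 fell. Over all genes, 1.1% were called higher and 4.22% lower. Shisa5, an endoplasmic reticulum protein also induced by p53, rose from 217 ± 116 CPM (n = 7) to 1086 ± 281 (n = 8), a log2 fold change of 2.33 (SE 0.47, adjusted p = 0.000542). Gbp4, a guanylate-binding protein, rose from 11.9 ± 17.3 to 250 ± 166 CPM, with a log2 fold change of 4.37 (SE 0.96, adjusted p = 0.00226). Igtp, an immunity-related GTPase that acts on vacuoles of intracellular parasites, rose with a log2 fold change of 4.19 (SE 0.94, adjusted p = 0.00377). The others were Gbp7, higher, and Parp12, lower. Of the 13 class I partners, Nlrc5, the transactivator of class I genes, rose by a log2 fold change of 3.34 (SE 0.93, adjusted p = 0.0215). H2-K1, a class I heavy chain, rose from 1063 ± 168 to 2248 ± 982 CPM (log2 fold change 1.06, SE 0.35, adjusted p = 0.0497). No receptor or sensor list gene passed in this comparison. The list medians lay between -0.87 and 0.52, where the median of all genes was -0.55.

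Of the 12 comparisons, ILC2P against CLP held the most calls, among the members and among all genes. Samhd1, Gbp2 and Zbp1 were higher in ILC2P, and Ifi27l2a, Ifi44, Trim30a, Ifitm1 and Gbp3 were lower. That is 3 members higher and 5 lower of 42, where 3.46% of all genes were called higher and 8% lower. With DESeq2's size factors in edgeR the members split 4 higher to 3 lower, and all genes 492 to 608 in place of 380 to 878. DESeq2 gave 5 higher and 3 lower. The median member lay at -0.85 and the median gene at -0.43, and 33.3% of members against 27.1% of all genes had an unadjusted p under 0.05.

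Samhd1 ran from 8.36 to 230 CPM in CLP (median 98.7), below all 8 ILC2P libraries (345 to 1491). The log2 fold change was 3.07 (SE 0.57, adjusted p = 6.09e-05), and it was 2.74 (0.000329) and 3.35 (0.00757) within batches 1 and 2. Samhd1 thus passed in both batches here. Gbp2, a guanylate-binding protein that attacks pathogen vacuoles, ran from 0 to 36.6 CPM in CLP (median 6.28) and from 0 to 403 in ILC2P (median 156). Its log2 fold change was 3.63 (SE 0.95, adjusted p = 0.00701), and 7 of 8 ILC2P libraries exceeded the CLP mean of 13.7. Zbp1 had counts in 5 of 8 ILC2P libraries, up to 251 CPM (median 12.1), against 1 of 8 in CLP, with a log2 fold change of 4.91 (SE 1.34, adjusted p = 0.0094).

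Trim30a, a mouse TRIM protein that restrains NF-κB signalling, had the smallest SE of the log2 fold change among the genes that fell. Trim30a ran from 209 to 612 CPM in CLP (median 352) and from 0 to 310 in ILC2P (median 54.5), a log2 fold change of -2.22 (SE 0.57, adjusted p = 0.00578). All 8 CLP libraries exceeded the ILC2P mean of 84.5 CPM. CILP lay between, at 127 to 219 CPM. Within batch 1 the log2 fold change was -1.01 (adjusted p = 0.381) and within batch 2 it was -3.68 (0.0162), with ILC2P means of 174 and 31.2 CPM.

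Ifi27l2a had counts in 1 of 8 ILC2P libraries, at 34.5 CPM, against all 8 CLP libraries at 16.3 to 606. Its log2 fold change was -5.74 (SE 1.08, adjusted p = 7.09e-05), and it was -6.22 (0.0456) and -5.61 (0.0118) within batches 1 and 2. Ifitm1, a relative of Ifitm3 that acts at the cell surface, was at 0 in all 8 ILC2P libraries and at 0 to 88.1 CPM (median 22.6) in CLP. Against 3 counts over the ILC2P group, or 5.68 CPM, it was at least 5.45-fold lower (adjusted p = 0.0223, edgeR). DESeq2 did not call Ifitm1 (adjusted p = 0.203). Gbp3 stood at 11.02 to 491 CPM in CLP (median 24.5) and had counts in 1 of 8 ILC2P libraries (44.5 CPM), a log2 fold change of -3.64 (SE 1.21, adjusted p = 0.0369). Its highest CLP value, in replicate 1, is far above the other 7.

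The Gbp3 call was lost without any of 8 of the 16 libraries (CLP replicate 1, and ILC2P replicates 1 to 4 and 6 to 8), with an adjusted p of up to 0.225, and its log2 fold change ran from -2.32 without CLP replicate 1 to -6.29 without ILC2P replicate 5. It was also lost with DESeq2 (adjusted p = 0.0786), with DESeq2's size factors in edgeR (0.0656) and without the shallow ILC2P replicates 1 and 3 (0.0992). For Ifi44, at 0 to 37.6 CPM in ILC2P, the log2 fold change was -3.49 (SE 1.13, adjusted p = 0.031). The Ifi44 call was lost without CLP replicates 3 or 4 or ILC2P replicates 1, 3, 4 or 5 (adjusted p up to 0.0621), with DESeq2's size factors in edgeR (0.0572) and without both ILC2P replicates 1 and 3 (0.115), and its direction turned within batch 1 (0.42, adjusted p = 0.961, against -4.81 and 0.0166 within batch 2). For the remaining calls the values within batches 1 and 2 were 3.33 (adjusted p = 0.205) and 3.81 (0.0556) for Gbp2, 3.13 (0.525) and 6.57 (0.0313) for Zbp1, and -4.24 (0.336) and -5.71 (0.129) for Ifitm1, by edgeR. Gbp3 could be fitted within batch 2 alone, at -3.43 (0.162). The 8 plasmacytoid dendritic markers took 0.041% to 0.237% of counts in ILC2P, with Klk1 at 0, and 1 passed as higher and 5 as lower than in CLP. Their part in these results was not tested.

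Calls among the surrounding genes stand beside the same 3.46% of all genes higher and 8% lower. Of 18 receptors and signalling genes, Socs1 (log2 fold change 4.68, SE 1.00, adjusted p = 0.000506) and Jak2 (2.27, SE 0.76, adjusted p = 0.0362) were higher, and Irf8 and Ptpn6, a phosphatase that damps cytokine signals, were lower. Irf8 was at 0 in all 8 ILC2P libraries (adjusted p = 0.000142, edgeR). Of 36 further responsive genes, 5 were higher and 3 lower. Shisa5 was higher with a log2 fold change of 2.42 (SE 0.45, adjusted p = 4.7e-05) and Gbp4 with 3.40 (SE 0.86, adjusted p = 0.00494), and Pml, the organiser of nuclear bodies, was lower with -2.86 (SE 0.82, adjusted p = 0.0136). H2-K1 was the class I partner called, higher by 1.32 (SE 0.34, adjusted p = 0.00507). No sensor, adaptor or interferon gene passed.

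TCF7-/- mice were compared with wild type to ask what changes without TCF-1. In CLP, which carry little Tcf7, no member passed (0 of 42), nor did any other gene, so that 0% of genes were called higher and 0% lower. At an unadjusted p under 0.05 there were 3 members (7.14%) and 713 genes (6.5%), and DESeq2 called 0 members and 1 gene. The member with the smallest p was Rsad2, which encodes viperin, an enzyme that makes a chain-terminating nucleotide. Rsad2 stood at 224, 12.8, 32.7, 0 and 59.6 CPM in TCF7-/- CLP and at 0 in 7 of 8 wild-type CLP libraries, with 12.2 in the eighth. Its log2 fold change was 4.62 (SE 1.31, adjusted p = 0.422).

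In CILP, the population with the most Tcf7, TCF7-/- libraries held more Rsad2, Ifitm3 and Ifi27l2a than wild type. These are 3 of 42 members higher and 0 lower, where 0.419% of all genes were called higher and 0.082% lower. Rsad2 stood at 760, 47.5, 0 and 694 CPM in the 4 TCF7-/- libraries and at 0 to 37.2 (median 6.99) in the 7 wild-type libraries, a log2 fold change of 4.92 (SE 1.29, adjusted p = 0.0492). Ifitm3 stood at 80.0, 6.34, 0 and 88.9 CPM against 0 in every wild-type library, which is at least 19.7-fold higher than 3 counts over the wild-type group (adjusted p = 0.0474, edgeR). Ifi27l2a stood at 180, 60.2, 0 and 107 CPM against 0 to 11.2, a log2 fold change of 4.02 (SE 1.03, adjusted p = 0.0478). For each of these genes, 1 of the 4 TCF7-/- libraries, replicate 3, was at 0. Of all members, 12 had an unadjusted p under 0.05 (28.6%, against 11.1% of all genes), while the median member lay at -0.19 (all genes -0.32).

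The TCF7-/- CILP libraries with the highest Rsad2 and Ifitm3, replicates 1 and 4, are those with over 1% of other-cell markers. The 12 myeloid markers took 1.102% and 1.169% of their counts and 0.100% and 0 in replicates 2 and 3, against 0.001% to 0.161% in wild-type CILP. Of these markers 9 had counts in TCF7-/- CILP, and Mpo, Elane and Prtn3 were at 0. The 6 erythroid markers took 0.005% to 0.424% in TCF7-/- CILP, all 6 with counts, against 0 to 0.039% in the wild type. Without the marker-rich libraries, a comparison added after the values were seen, the log2 fold changes were 0.88 (adjusted p = 1, edgeR) for Rsad2, 2.63 (0.864) for Ifitm3 and 2.38 (0.865) for Ifi27l2a, and 0 members were called.

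Each of these 3 calls was also lost without any wild-type CILP library, or without TCF7-/- replicate 1 or 4 alone, with adjusted p-values of up to 0.338. The Rsad2 call was lost with DESeq2 (adjusted p = 0.257) and, in a fit without the shallow ILC2P replicates 1 and 3, it missed the threshold (0.0522). Within batches 1 and 2 the log2 fold changes were 5.53 (adjusted p = 0.04, edgeR) and 4.62 (0.855) for Rsad2, 5.65 (0.322) and 5.73 (0.586) for Ifitm3, and 3.68 (0.368) and 4.11 (0.519) for Ifi27l2a. Samhd1, which is low in wild-type CILP, stood at 200, 599, 230 and 88.9 CPM in TCF7-/- CILP against 0 to 174, with 3 of 4 libraries above the wild-type range. Its log2 fold change of 2.17 (SE 0.66) had an adjusted p of 0.124, of 0.0304 with DESeq2's size factors in edgeR, of 0.0204 with DESeq2, and of 0.232 without the marker-rich libraries. No gene of the 4 surrounding lists passed in TCF7-/- CILP or CLP (edgeR), and in CILP the list medians ran from -0.97 for the sensors to 0.25 for the receptors.

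**Figure D5:**
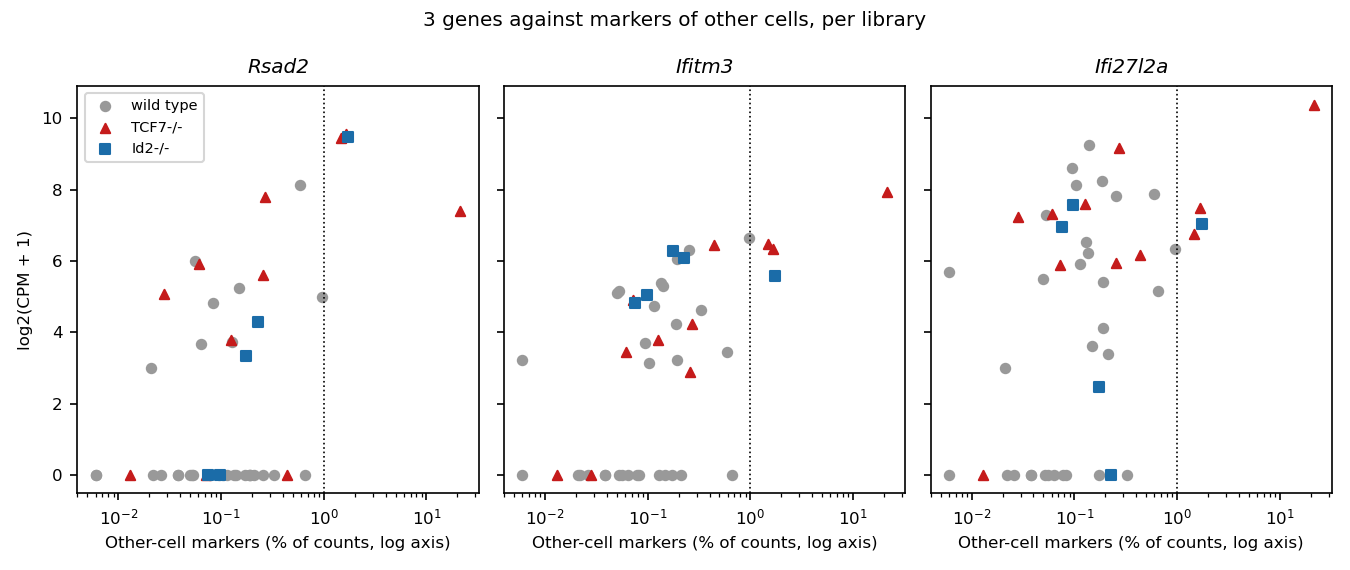
Level of Rsad2, Ifitm3 and Ifi27l2a, as log2(CPM + 1), against the share of counts on myeloid, erythroid, plasma and mature B cell markers (%, log axis), with 1 point per library. Circles are wild type, triangles TCF7-/- and squares Id2-/-, and the dotted line marks 1%; the 4 libraries to its right include the TCF7-/- CILP libraries at 694 and 760 CPM and the Id2-/- ILCP library at 709 CPM of Rsad2.

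In ILC2P, TCF7-/- libraries held more Ifi27l2a, Ifitm1 and Ifitm3, again 3 of 42 members higher and 0 lower, where 2.54% of all genes were called higher and 0.0273% lower. Ifi27l2a stood at 1343 and 58.2 CPM in the TCF7-/- libraries and at 0 to 34.5 in the 8 wild-type libraries, a log2 fold change of 7.42 (SE 1.23, adjusted p = 3.34e-05). Ifitm3 stood at 243 and 29.1 CPM against 0 to 23.8, a log2 fold change of 5.34 (SE 1.55, adjusted p = 0.037). For both genes the groups do not overlap. Ifitm1 stood at 162 and 0 CPM against 0 in every wild-type library, so its call (adjusted p = 0.0294, edgeR) and its bound of at least 14.3-fold over 3 counts in the wild-type group rest on replicate 1.

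TCF7-/- ILC2P replicate 1, the higher library for all 3 genes, carried 19.960% of its counts on the 6 plasma and mature B markers (Sdc1 at 0) and 1.063% on the 12 myeloid markers. Replicate 2 carried 0.057% and 0.012%, and wild-type ILC2P 0 to 0.153% and 0 to 0.533%. Of the plasma and mature B markers 4 of 6 passed as higher. Without replicate 1 the log2 fold changes were 3.84 (adjusted p = 0.364, edgeR) for Ifi27l2a, 3.19 (0.679) for Ifitm3 and 0.18 (1) for Ifitm1, and no member passed. The Ifitm3 call was also lost without any of 6 wild-type libraries (replicates 2 to 5, 7 and 8), and the Ifitm1 call without wild-type replicate 2. Without the shallow wild-type replicates 1 and 3 the adjusted p was 0.0837 for Ifitm3 and 0.0567 for Ifitm1, and with DESeq2's size factors in edgeR it was 0.0544 for Ifitm3.

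Wild-type ILC2P libraries are shallow, with totals of 19322 to 80873, so that 3 counts over the group already stand for 5.68 CPM, and a low level there was not detectable at this depth. TCF7-/- ILC2P had 248697 and 252100 counts, and 33 and 37 of 43 members had counts in them, against 14 to 26 in wild-type ILC2P. Within batch 2, where both TCF7-/- libraries are, Ifi27l2a gave a log2 fold change of 7.21 (adjusted p = 0.0079, edgeR), Ifitm3 7.47 (0.114) and Ifitm1 6.73 (0.196). DESeq2 called 1 member and gave no adjusted p for Ifitm1 and Ifitm3. Among the surrounding genes, Irf8, at 24.3 and 92.2 CPM (adjusted p = 0.0245, edgeR), and Oasl1, of the oligoadenylate synthetase family, at 43.7 and 154 CPM (adjusted p = 0.0446), were higher in TCF7-/- ILC2P. Both were at 0 in all 8 wild-type ILC2P libraries, and their calls stand beside 2.54% of all genes higher and 0.0273% lower. Without the marker-rich libraries neither passed (adjusted p = 0.0696 for Irf8 and 0.332 for Oasl1), and with all libraries the list medians lay between 0.07 and 1.16.

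Id2-/- mice were compared with wild type in CLP and in CILP, with 2 libraries each. In CLP no member passed (0 of 42), where 0.0273% of all genes were called higher and 0.00911% lower, and 1 member had an unadjusted p under 0.05 (2.38%, against 3.17% of all genes). That member was Mx1, a dynamin-like GTPase that traps viral nucleoproteins. Mx1 stood at 82.7 and 258 CPM in Id2-/- CLP and at 0 to 215 (median 10.4) in wild-type CLP, with overlapping groups and a log2 fold change of 3.26 (SE 1.60, adjusted p = 1). Plasmacytoid dendritic markers took 0.727% to 0.794% of counts there, all 8 with counts, against 0.120% to 0.761% in wild-type CLP, and their part was not tested.

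In Id2-/- CILP no member passed either (0 of 42), where 0.0547% of all genes were called higher and 0.0365% lower, and 4 members had an unadjusted p under 0.05 (9.52%, against 6.26%). Ifitm3 had the smallest p. It stood at 67.4 and 76.9 CPM in the Id2-/- libraries and at 0 in all 7 wild-type CILP libraries, so the groups do not overlap, and its adjusted p was 0.0823 (edgeR). Ifitm1 stood at 153 and 262 CPM there, against 0 to 28.0 in wild-type CILP, and did not pass. Within batch 1, where both libraries are, Samhd1 was called, with a log2 fold change of 3.30 (adjusted p = 0.00438, edgeR); it stood at 251 and 145 CPM. Mast cell and basophil markers took 0.307% and 0.614% of counts in Id2-/- CILP, 5 of 6 with counts and Tpsb2 at 0, and 0.005% to 0.503% in wild-type CILP, where 4 of 6 had counts and Ms4a2 and Tpsb2 were at 0. Their part was not tested. DESeq2 called 0 members in either Id2-/- comparison, and no gene of the surrounding lists passed (edgeR).

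The lone Id2-/- ILCP library has no replicate and was not tested. It held 709 CPM of Rsad2, 131 of Ifi27l2a, 46.6 of Ifitm3 and 382 of Samhd1. Its Rsad2 lies above all wild-type ILCP values (281, 0 and 0) and its Samhd1 below them. Myeloid markers took 1.581% of its counts, 11 of 12 with counts and Csf1r at 0.

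Whether the loss of a factor acts differently in CILP than in CLP was tested as an interaction. For TCF7-/- no member passed (0 of 42), where 0.0273% of all genes were called higher and 0.0182% lower, and 11 members had an unadjusted p under 0.05 (26.2%, against 9.08%). Ifitm3 had the smallest p: its difference from wild type was larger in CILP than in CLP by 6.20 on the log2 scale (SE 1.74, adjusted p = 0.171), and by 3.29 without the marker-rich libraries (adjusted p = 0.774). For Id2-/- no member passed either (0 of 42), where 0% of all genes were called higher and 0.0365% lower, and 4 members had an unadjusted p under 0.05 (9.52%, against 4.81%). Ifitm3 again had the smallest p, with a difference of 6.65 (SE 2.21, adjusted p = 0.745). DESeq2 called 0 members in either. The TCF7-/- and Id2-/- interactions share the wild-type CILP libraries, in which Ifitm3 was at 0 throughout.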

How the data were processed

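Each sample was 100 sorted bone marrow cells, read by CEL-seq. The deposited values are read counts per gene, and the authors gave each batch its own table. The submitters' processing notes name CASAVA 1.8.2, featureCounts, limma, edgeR 3.8.2, edgeR 3.22.0 and the mm10 build. The aligner, the strand setting and the treatment of multi-mapped reads are not given in the sources used here. No source mentions molecular identifiers. The intervals and bounds treat each read as a separate count, so they reflect the counting of reads alone and may be too tight for the counting of molecules. Reads shared by close relatives (the Ifitm, Gbp, Oas, Ifit, Ifi27 and Trim30 families) may be split or dropped, and their values are uncertain to that extent. Of 27179 identifiers, 92.99% matched RefSeq's GRCm38.p6 annotation, and no value column lacked a sample (0).

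There were 70 samples, and the counts of 4 technical repeats were summed with those of the library they repeat. Wells with spike-in alone (12), libraries labelled Nfil (6, an unsuccessful knockout per the labels) and 1 wild-type CILP library that the labels call an outlier stayed out, which left 47 libraries (31 wild type, 22 in batch 1 and 25 in batch 2). Replicates were numbered in accession order, and numbers only name libraries.

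Tests used edgeR 4.0.16 in R 4.3.3: filterByExpr by group (10 counts, 15 summed), TMM normalization, then a quasi-likelihood fit (robust) with group and batch, leaving 35 residual degrees of freedom. The biological coefficient of variation was 109.7%. Groups of 1 or 2 libraries borrow their spread from the other groups. A call is an adjusted p (Benjamini-Hochberg, over 10972 genes) under 0.05. SE is the log2 fold change divided by the square root of F. Where a group had no counts, a fold was bounded by 3 counts over that group. The procedure was tested on simulated data shaped like CILP against CLP (8625 genes). Of 50 genes changed per size and direction, it called 50 with a 64-fold rise, 46 with a 64-fold fall, 23 with an 8-fold rise and 13 with an 8-fold fall. Of the 136 calls, 4 fell on genes left unchanged. The changed genes were drawn from the more abundant ones, every gene had the same relative spread, and no batch difference was simulated. These rates therefore do not carry over to members with low counts.

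Named in full were members called in any comparison, the 12 with the highest mean CPM in wild type, the member with the smallest p where none passed, and up to 3 called genes per surrounding list and comparison. Members, roles, lists and tests were chosen with earlier results of these data known. The alternatives tried were DESeq2 1.42.0, DESeq2 size factors within edgeR, no filter, each batch alone, the outlier included, 2 shallow ILC2P libraries (replicates 1 and 3, with totals below 20% of the median in their batch) left out, each library left out in turn and, added after seeing the data, the 4 marker-rich libraries left out. Tables and plots used Python 3.11.15 with pandas 2.3.3, scipy 1.17.1 and matplotlib 3.10.9.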

Additional observations from a re-analysis of the deposited data

Results flagged for a closer look

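In each of the 6 groups of 4 to 8 libraries, the 10 genes called and the summed shares with and without B2m were checked for a library that stands apart from the rest of its group. Chance meets this check in about 5% of cases. It was met in 23 of 72, all of them single genes. Most of these groups hold libraries at 0 and a lone library with counts, which this check meets readily, so the values are given with no explanation.

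In wild-type CLP the libraries apart were replicate 6 for Zbp1 (8.48 CPM), replicate 7 for Rsad2 (12.2 CPM) and replicate 1 for Gbp3 (491 CPM). In α4β7+ CLP they were replicate 1 for Zbp1 (24.02 CPM) and for Ifi44 (426 CPM), replicate 5 for Ifitm1 (3.89 CPM) and replicate 4 for Rsad2 (31.0 CPM). In wild-type CILP, Ifitm1 stood apart in replicate 6 (28.0 CPM), Gbp2 in replicate 3 (317 CPM) and Ifi44 in replicate 2 (24.7 CPM).

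In wild-type ILC2P, replicate 2 stood apart for Zbp1 (251 CPM) and Rsad2 (62.7 CPM), and replicate 6 for Ifitm3 (23.8 CPM) and Trim30a (310 CPM). There, Gbp3 stood apart in replicate 5 (44.5 CPM) and Ifi27l2a in replicate 1 (34.5 CPM). In TCF7-/- CLP, replicate 1 stood apart for Rsad2 (224 CPM) and Ifi27l2a (572 CPM), replicate 5 for Ifitm1 (44.7 CPM), replicate 4 for Ifitm3 (85.8 CPM) and replicate 2 for Gbp3 (269 CPM). In TCF7-/- CILP it was replicate 2 for Zbp1 (3.17 CPM) and replicate 3 for Ifi44 (115 CPM).

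For Zbp1, both TCF7-/- ILC2P libraries (63.1 and 129 CPM) lay above the wild-type ILC2P mean (a mean difference of 39.2 CPM). Both lay inside the wild-type range of 0 to 251 CPM. Every TCF7-/- CILP library lay below the wild-type CILP mean, inside the wild-type range of 0 to 101 CPM. Zbp1 was at 0 in every TCF7-/- CLP library and in 7 of 8 wild-type CLP libraries, so CLP shows no difference at this depth. For Samhd1, both TCF7-/- ILC2P libraries (733 and 793 CPM) lay below the wild-type ILC2P mean (a mean difference of -191 CPM). Both lay inside the wild-type range of 345 to 1491 CPM. Every TCF7-/- CILP library lay above the wild-type CILP mean, at 88.9 to 599 CPM against a wild-type range of 0 to 174. Whether these differences themselves differ was not tested.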

How the results depend on the processing

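No paired analysis was possible because the labels give no replicate numbers, and those used here follow accession order and only name libraries. The counts of members called moved by more than 1.5 times as follows. CILP against CLP went from 4 to 1 in batch 1 alone and to 2 in batch 2 alone. The call in batch 1 alone was Samhd1, which is not among the 4. ILCP against CILP went from 2 to 0 in batch 2 alone, and ILC2P against CLP from 8 to 2 in batch 1 alone and 5 in batch 2 alone. ILC2P against CILP went from 1 to 4 with DESeq2. TCF7-/- CILP went from 3 to 0 in batch 2 alone and to 0 without the marker-rich libraries. TCF7-/- ILC2P went from 3 to 1 with DESeq2, in batch 2 alone and with low libraries left out, and to 0 without the marker-rich libraries. Id2-/- CILP went from 0 to 1 (Samhd1) in batch 1 alone. A batch alone has fewer samples, and ILCP in batch 1 is 1 library, so no count is given for that fit. For the rest the cause was not tested, save that 2 genes had no DESeq2 adjusted p in TCF7-/- ILC2P. With 1 library left out in turn, counts ran from 3 to 6 for CILP against CLP, 1 to 2 for ILCP against CILP, 1 to 2 for ILC2P against CILP, 6 to 8 for ILC2P against CLP, 0 to 3 for TCF7-/- CILP, 0 to 3 for TCF7-/- ILC2P and 0 to 0 for the others. Over single genes, leaving out 1 library kept the call in 215 of 286 fits, lost it in 71 and reversed 0, and the other settings kept 119 of 162, lost 42 and reversed 1, which was Ifi44 in ILC2P against CLP within batch 1 (0.42 on the log2 scale). The calls of Samhd1 in ILC2P and of Ifi27l2a in ILC2P against CLP held in every alternative run. DESeq2's size factors moved the median gene from -0.55 to -0.23 for ILC2P against CILP and from -0.43 to -0.18 for ILC2P against CLP. Depth limits the low members most in wild-type ILC2P, the shallowest group. The group means of the summed share moved by less than 1 SD in every alternative run.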

Other observations

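Libraries outside the comparisons gave shares of gene counts on the 43 genes that are listed here as values. The wild-type CILP library that the labels call an outlier held 0.359%. The libraries labelled Nfil held 0.407% and 0.550% in CLP, 0.262% in CILP, and 0.631% and 0.737% in ILC2P. The other Nfil CILP library held 0 of 296 counts, which allows a share of up to 1.01%. The spike-in well with the highest share held 1.266%, from 2 of 158 counts (exact 95% interval 0.154% to 4.498%).

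Among the TCF7-/- libraries, the replicate 1 of CLP, CILP and ILC2P, whose names in the labels are consecutive, held the highest level in its population of Rsad2 (224, 760 and 170 CPM) and of Ifi27l2a (572, 180 and 1343 CPM). No label ties these 3 libraries to one animal or day, and both genes were picked out after their values were seen.

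Some members passed in an alternative and not in the comparisons reported above. Rtp4 was lower in CILP than in CLP with DESeq2 (log2 fold change -3.87, adjusted p = 0.0102) and with its size factors in edgeR (-3.78, 0.0418), and its adjusted p in the reported fit was 0.054. Also in CILP against CLP, Eif2ak2 (-2.99, 0.0424) and Gbp3 (-3.97, 0.0255) were lower with DESeq2, and Gbp3 was lower with the outlier put back (-4.10, 0.032) and without the marker-rich libraries (-4.00, 0.0472). B2m was higher in ILC2P than in CLP with DESeq2 (0.89, 0.0199) and with its size factors (0.89, 0.035), and Ddx58 with DESeq2 (2.61, 0.0208). Within batch 1, Samhd1 was higher in TCF7-/- CILP than in wild type (3.09, adjusted p = 0.0264, edgeR). Samhd1 was lower in CILP than in CLP within batch 1 (-3.05, adjusted p = 0.00399, edgeR), where CILP averaged 13.99 CPM and CLP 159, and did not pass with both batches.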
